A study of Mus musculus with 20 samples.

Results

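A group of 9 genes of insulin and IGF signalling through PI3K was followed in the islets of male ob/ob mice, which carry a leptin mutation and become obese. The 9 genes encode the receptors INSR and IGF1R, the docking proteins IRS1 and IRS2, the kinases AKT1 and AKT2, the phosphoinositide phosphatase INPP4B and the transcription factors FOXO1 and FOXO3. They were chosen by name, with earlier results of these data known, through the gene symbol of each probe. The probe with the highest mean stood for a gene. All 9 had a probe and passed the filter on low signal, out of 26159 genes with a probe and 18311 genes past the filter.

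Islet RNA was measured on 20 single-colour arrays, 5 per group, with each array taken as a separate mouse. The 39-week CRD group had HFD for 39 weeks and then 2 days of CRD, and the 39-week HFD group stayed on HFD. The 18-week CRD group had HFD for 18 weeks and then 2 days of CRD, and the 18-week HFD group stayed on HFD. The labels do not spell out these diet names. Every mouse was of strain B6.V-Lep ob/ob, so the leptin mutation is shared by all groups and no lean control enters the comparisons. Age and weeks of HFD are the same number in the labels and cannot be told apart. Islets were freed with collagenase and picked by hand, so each array averages over beta, alpha, delta and PP cells and whatever exocrine tissue came along.

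Insulin and the IGFs bind receptor tyrosine kinases, which phosphorylate IRS proteins. IRS proteins recruit PI3K, whose lipid product activates AKT, and AKT phosphorylates FoxO factors and keeps them out of the nucleus. In beta cells the pathway is known for its part in cell growth and survival, with IRS2 as the main IRS protein of beta-cell expansion and FOXO1 as a regulator of beta-cell identity genes.

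The arrays were clustered into 3 array sets that no label records, found after the data were seen from the signals of 1315 chemosensory receptor genes. The number of sets was fixed at 3 for the clustering. Over those genes, arrays of 1 set correlated at 0.925 to 0.978 and arrays of different sets at 0.847 to 0.916. The sets were made from these correlations, so this gap is partly built in. In set A were 4 arrays of the 39-week CRD group, 3 of the 39-week HFD group, 1 of the 18-week CRD group and 4 of the 18-week HFD group. Set B held 0, 1, 4 and 1 arrays of those groups in the same order, and set C held 1, 1, 0 and 0. Values from a fit with array set as a blocking term (array set blocked) and values within sets stand beside the results. Checked against the islet label, Ins2, which encodes insulin, had group means of 17.89 to 17.94, at or near the highest value of the table. Markers of other cells also differed between groups. Of 10 acinar enzyme and acinar factor genes, 8 rose with CRD at 18 weeks, while 1 rose and 2 fell with CRD at 39 weeks. In the fit with array set blocked 1 rose at 18 weeks, and 1 rose and 3 fell at 39 weeks. With age on HFD 6 of the 10 rose (8 with array set blocked), with a median log2 fold change of 4.75. Their mean log2 intensity per array was 8.73 to 10.96 in the 39-week CRD group, 10.78 to 11.65 in the 39-week HFD group, 8.65 to 11.19 in the 18-week CRD group and 6.03 to 10.81 in the 18-week HFD group. All 5 genes of cycling cells rose with CRD at both ages, with mean log2 intensities of 7.82 to 9.37 after CRD and 3.60 to 4.29 on HFD at 39 weeks, and of 8.04 to 9.85 after CRD and 3.20 to 5.15 on HFD at 18 weeks. Of 10 beta-cell genes, 5 fell with CRD at 39 weeks and 8 at 18 weeks. The part of these cell markers in the results on the 9 genes was not tested, and in whole islets fewer cells of a type and less RNA per cell cannot be told apart.

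Foxo1 was lower after CRD than on HFD at both ages, and Irs1 and Inpp4b were lower after CRD at 39 weeks. Fold changes are differences in log2 intensity with their standard error (SE), from limma fitted over all 18311 genes. A gene is called at a Benjamini-Hochberg adjusted p under 0.05. The 9 genes were chosen with earlier results of these data known, so their counts stand beside the shares of all genes without a test. With CRD at 39 weeks 3 of the 9 genes fell and 0 rose, where 8.34% of all genes were called, 3.50% as higher and 4.84% as lower (15.3% with array set blocked, which also called 3 of the 9). With CRD at 18 weeks 1 of 9 fell and 0 rose, where 24.9% of all genes were called, 17.0% as higher and 7.89% as lower (12.9% with array set blocked, which also called 1 of the 9). The median log2 fold change of the 9 genes was -0.47 at 39 weeks, against 0.02 over all genes tested. At 18 weeks it was -0.06, against 0.04 over all genes tested. Blocking array set brought the medians of the 9 genes close at the 2 ages, at -0.42 at 39 weeks and -0.42 at 18 weeks, against 0.01 over all genes in each case. The 2 groups did not overlap for 5 of 9 genes at 39 weeks (12.7% of all genes) and for 1 of 9 at 18 weeks (9.60% of all genes). Between ages, 0 of 9 genes were called on HFD (0.0928% of all genes, 0.0710% higher and 0.0218% lower), with 2 of 9 at an unadjusted p under 0.05 (6.6% of all genes), and 1 of 9 was called after CRD, Inpp4b, lower at 39 weeks (0.0273% of all genes). The 2 ages did not overlap for 0 of 9 genes on HFD (1.05% of all genes) and for 3 of 9 after CRD (4.57% of all genes), Irs1, Foxo3 and Inpp4b.

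**Figure D1:**
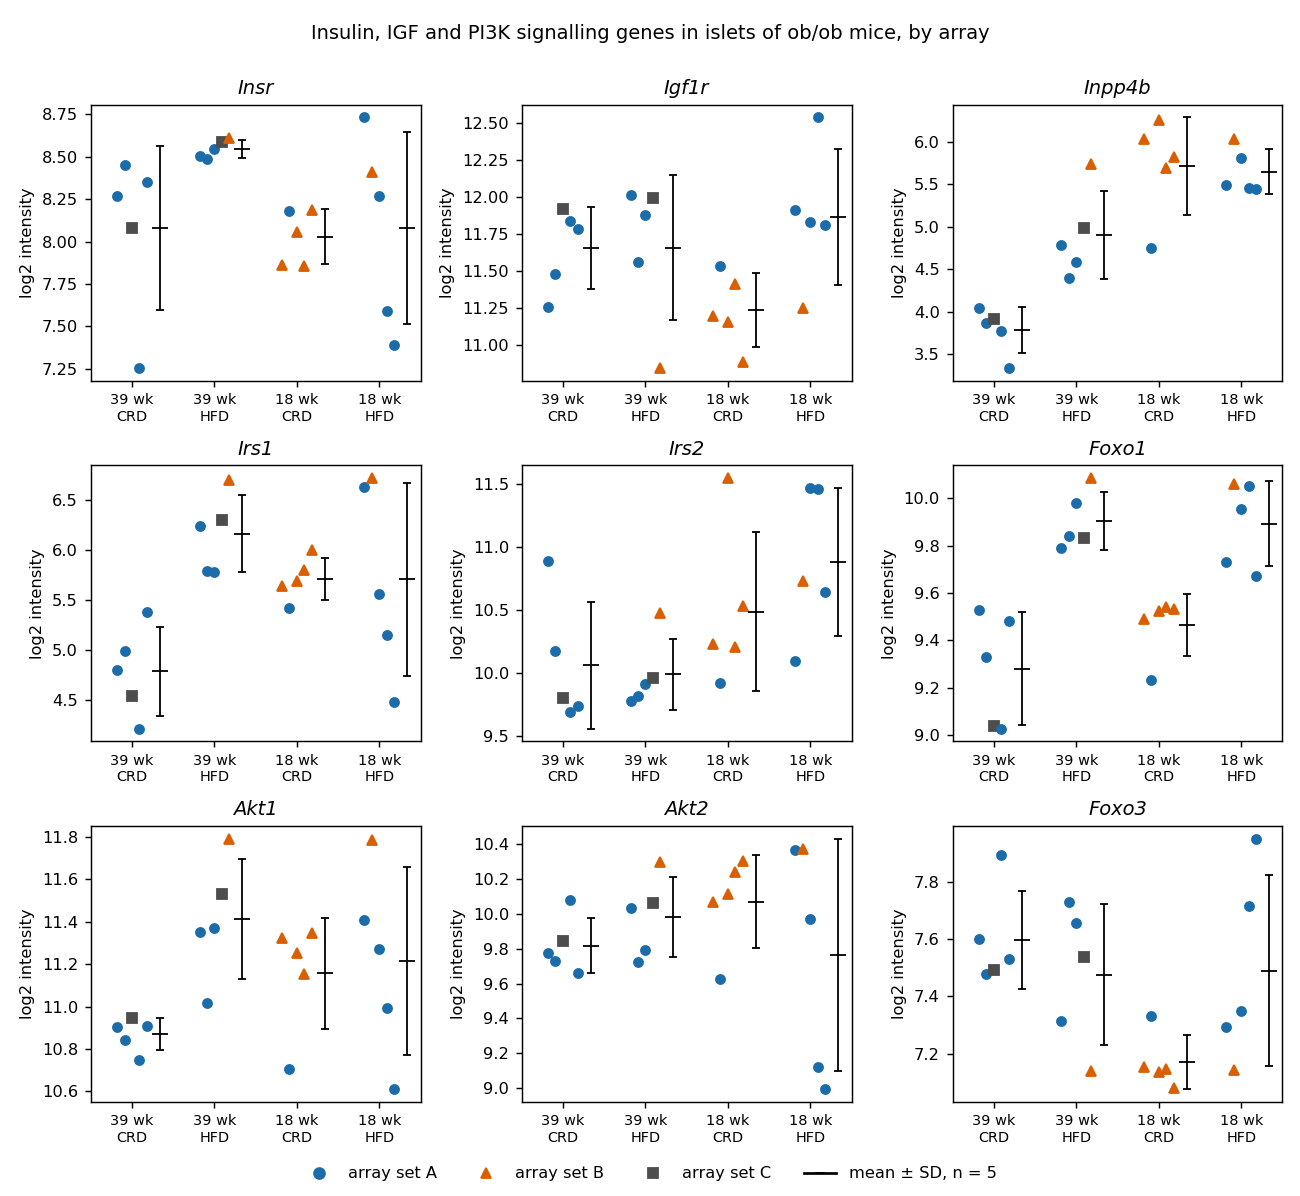
Log2 intensity of the 9 genes on each array (points, with a symbol for each array set) and the group mean ± SD (bars, n = 5), for the 39-week CRD, 39-week HFD, 18-week CRD and 18-week HFD groups. The Foxo1 points of each CRD group lie below those of the HFD group of the same age, and the lowest Inpp4b group is 39-week CRD, with a mean of 3.79.

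Insr encodes the insulin receptor. Its log2 intensity was 8.27, 8.45, 8.08, 7.25 and 8.35 on the 39-week CRD arrays, against 8.51, 8.48, 8.54, 8.59 and 8.61 on the 39-week HFD arrays. The 18-week values were 7.86, 8.18, 8.06, 7.85 and 8.18 on the CRD arrays, against 8.73, 8.41, 8.27, 7.59 and 7.39 on the HFD arrays. The 39-week HFD arrays lay close together and above every 39-week CRD array, while the 18-week HFD arrays spread on both sides of the 18-week CRD arrays. The difference at 39 weeks was -0.47 ± 0.24 (95% interval -0.97 to 0.04) and was not called (adjusted p = 0.289), and at 18 weeks it was -0.05 ± 0.24 (adjusted p = 0.883). Replicate 4 of the 39-week CRD group, at 7.25, lay below the other 4 of its group.

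Igf1r encodes the receptor for the insulin-like growth factors. It ranged over 11.26 to 11.92 after CRD and 10.84 to 12.01 on HFD at 39 weeks, and over 10.88 to 11.53 after CRD and 11.25 to 12.54 on HFD at 18 weeks. Neighbouring groups overlapped throughout the order of means, which ran 18-week HFD, 39-week HFD, 39-week CRD and 18-week CRD. The 18-week difference was -0.63 ± 0.24 and was not called (adjusted p = 0.0608). Without replicate 2 of the 18-week HFD group it was -0.79 (adjusted p = 0.0128), in a fit that called 45.9% of all genes. Without replicate 2 of the 18-week CRD group it was -0.70 (adjusted p = 0.0363), in a fit that called 39.8% of all genes. The fit of all arrays called 24.9%. With array set blocked the 18-week Igf1r difference was -0.21 (adjusted p = 0.62). At 39 weeks the difference was -0.002 ± 0.24 with a 95% interval of -0.51 to 0.50.

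Irs1 encodes a docking protein that links the receptors to PI3K. After CRD at 39 weeks its log2 intensity was 4.80, 4.99, 4.54, 4.21 and 5.38, against 6.24, 5.79, 5.78, 6.30 and 6.70 on HFD at 39 weeks. Every CRD array at that age was below every HFD array. The group means were 4.78 ± 0.44 after CRD and 6.16 ± 0.39 on HFD (SD, n = 5 each), a log2 fold change of -1.38 ± 0.34 or 0.384 times the HFD level (limma, adjusted p = 0.0138). With array set blocked the change was -1.23 (adjusted p = 0.009), and within sets it was -1.09 in set A (4 arrays against 3) and -1.76 in set C (1 against 1). A fit of the 12 arrays of set A alone did not call it (adjusted p = 0.201). The Irs1 mean after CRD at 39 weeks lay just below the filter of 4.83, so the size of its fall is uncertain. With 16 added to each intensity the fall was smaller, with a log2 fold change of -1.0 (limma, adjusted p = 0.0185).

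No change in Irs1 with CRD was called at 18 weeks. Its log2 intensity was 5.64, 5.41, 5.69, 5.79 and 6.0 after CRD, against 6.62, 6.72, 5.55, 5.14 and 4.47 on HFD. The 18-week HFD arrays spread over 4.47 to 6.72 and enclosed all the CRD arrays of that age, and the difference was 0.005 ± 0.34 with a 95% interval of -0.71 to 0.71. Its sign turned to -0.46 with array set blocked (adjusted p = 0.506) and to -0.04 with 16 added to each intensity. The CRD effect at 39 weeks minus that at 18 weeks was -1.38 ± 0.48 and was not called (adjusted p = 0.222), and with array set blocked it was -0.77. After CRD the 39-week arrays were below all the 18-week CRD arrays, at -0.93 ± 0.34 (adjusted p = 0.103). Without replicate 2 of the 18-week CRD group that age difference was -1.0 (adjusted p = 0.0421). That fit called 35.3% of all genes, against 0.0273% with all arrays.

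Irs2, which encodes the IRS protein best known from beta cells, was not called in any contrast. Its values after CRD were 10.89, 10.17, 9.80, 9.69 and 9.74, against 9.77, 9.82, 9.91, 9.96 and 10.48 on HFD at 39 weeks. At 18 weeks they were 10.23, 9.92, 11.55, 10.20 and 10.53 after CRD, against 10.10, 10.73, 11.47, 11.46 and 10.64 on HFD. Each CRD group overlapped the HFD group of its age, with differences of 0.07 ± 0.31 at 39 weeks (95% interval -0.58 to 0.72) and -0.39 ± 0.31 at 18 weeks (95% interval -1.04 to 0.26). Between ages on HFD the change was -0.89 ± 0.31 and was not called (adjusted p = 0.378).

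The ratio of the 2 IRS genes on the same array was compared by an exact two-sided permutation test, in a family of 16 tests over 4 gene pairs and 4 contrasts. The log2 ratio of Irs1 to Irs2 intensity averaged -5.28 ± 0.63 after CRD and -3.83 ± 0.25 on HFD at 39 weeks (SD, n = 5 each). It fell by 1.45 in the CRD islets, with no overlap between groups (exact permutation p = 0.00794, the smallest this design allows, and 0.0423 after Benjamini-Hochberg adjustment). The change was -1.38 within set A and -1.61 within set C, and -1.68 to -1.25 when each of the 10 arrays was left out in turn. With 16 added to each intensity it was -1.07 (exact permutation, adjusted p = 0.0423). Levels of different probes cannot be set against each other, so only the change of the ratio is read, not its size.

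The start regions of these 2 genes are shown because both hold the letters CACGTG, the E-box bound by many helix-loop-helix factors, while their levels moved apart at 39 weeks. Each sequence is the 250 bases before the start and the start base, RefSeq GRCm38.p6, 5′ to 3′ on the gene's strand, with CACGTG and the start base in capitals. Irs1 is from chr1:82291439-82291689, minus strand, and Irs2 from chr8:11008929-11009179, minus strand.
Irs1: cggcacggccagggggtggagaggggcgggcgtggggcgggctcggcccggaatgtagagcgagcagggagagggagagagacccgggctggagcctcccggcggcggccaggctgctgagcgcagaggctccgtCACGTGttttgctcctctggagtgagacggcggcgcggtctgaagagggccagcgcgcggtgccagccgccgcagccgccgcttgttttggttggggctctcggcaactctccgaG
Irs2: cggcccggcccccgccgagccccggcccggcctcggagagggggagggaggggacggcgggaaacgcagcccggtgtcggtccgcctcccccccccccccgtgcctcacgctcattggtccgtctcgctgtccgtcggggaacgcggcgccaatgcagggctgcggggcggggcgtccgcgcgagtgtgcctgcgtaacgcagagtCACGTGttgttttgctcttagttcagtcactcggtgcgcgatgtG
CACGTG began 115 bases before the Irs1 start and 44 bases before the Irs2 start. Both strands were searched in windows of 250 bases before to 50 bases after each start, and 7.15% of all 32851 such windows held it, as did 2 of the 12 windows of the 9 genes. The letters describe the windows only, and no binding was measured.

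Akt1 and Akt2 encode 2 forms of AKT, the kinase activated by the PI3K product. On the probe that stood for it, Akt1 was 10.90, 10.84, 10.94, 10.75 and 10.91 after CRD, against 11.35, 11.02, 11.37, 11.53 and 11.79 on HFD at 39 weeks. The 18-week values were 11.32, 10.70, 11.25, 11.15 and 11.35 after CRD, against 11.41, 11.78, 11.27, 10.99 and 10.61 on HFD. At 39 weeks all CRD arrays were below all HFD arrays, but the change of -0.54 ± 0.20 was not called (adjusted p = 0.108, and 0.0536 with array set blocked). It was called with array set as a random block (-0.44, adjusted p = 0.0454, 15.3% of all genes called) and with array weights (-0.46, adjusted p = 0.0044, 24.1% of all genes called). At 18 weeks the change was -0.06 ± 0.20, or -0.42 with array set blocked (adjusted p = 0.113). A second, dimmer Akt1 probe gave -0.33 at 39 weeks with overlapping groups. On HFD the probes disagreed on age, at 0.20 ± 0.20 for the probe used and -0.75 for the other, so no direction is given for Akt1 with age.

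Akt2 is the AKT form best known from glucose uptake in muscle and fat. Its log2 intensity ranged over 9.66 to 10.08 after CRD and 9.72 to 10.30 on HFD at 39 weeks, and over 9.62 to 10.31 after CRD and 8.99 to 10.37 on HFD at 18 weeks. No Akt2 contrast was called, with -0.16 ± 0.24 for CRD at 39 weeks (adjusted p = 0.768) and 0.30 ± 0.24 at 18 weeks (adjusted p = 0.344). The log2 ratio of Akt1 to Akt2 was lower in CRD islets at 39 weeks, with 1.05 ± 0.22 after CRD and 1.43 ± 0.12 on HFD (SD, n = 5 each). The change of -0.38 had no overlap between groups (exact permutation p = 0.00794, adjusted 0.0423), yet with the second Akt1 probe it was -0.16 (adjusted 0.686). At 18 weeks the ratio changed by a similar -0.36, with overlapping groups, and was not called (exact permutation p = 0.0397, adjusted 0.127).

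Inpp4b encodes a phosphatase that removes a phosphate from a PI3K-derived lipid. After CRD its log2 intensity was 4.04, 3.87, 3.92, 3.77 and 3.33 at 39 weeks, against 4.78, 4.40, 4.58, 4.98 and 5.73 on HFD at 39 weeks. In the 18-week groups it was 6.03, 4.75, 6.25, 5.69 and 5.82 after CRD, against 5.49, 6.04, 5.81, 5.45 and 5.44 on HFD. The order of means was 18-week CRD, 18-week HFD, 39-week HFD and 39-week CRD, and the last was apart from all the others, with no array of it reaching any array of another group. The CRD change at 39 weeks was -1.11 ± 0.27 (limma, adjusted p = 0.0109, 0.000743 at -0.92 with array set blocked, and 0.0494 at -0.83 in set A alone). At 18 weeks it was 0.06 ± 0.27 (95% interval -0.49 to 0.61), and with array set blocked it turned to -0.50 (adjusted p = 0.107).

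After CRD, Inpp4b was lower at 39 than at 18 weeks, with a log2 fold change of -1.92 ± 0.27 (limma, adjusted p = 0.00437). With array set blocked this change was -1.23 (adjusted p = 0.294), where 0% of all genes were called, and 4 of the 5 18-week CRD arrays lay in set B, which held none at 39 weeks after CRD. Within set A, 4 arrays at 39 weeks against 1 at 18 weeks, it was -1.0 and was not called. On HFD the age change was -0.75 ± 0.27 (adjusted p = 0.404), and with array set blocked -0.80 (adjusted p = 0.0312, 0.912% of all genes called, 0.748% as lower). Acinar markers rose with age on HFD (6 of 10), and their part in this change was not tested. The CRD effect differed between ages by -1.17 ± 0.38 and was not called (adjusted p = 0.222), and with array set blocked this was -0.43.

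The Inpp4b signal was dim. Its mean over the 20 arrays was 5.01 on the log2 scale, just over the filter at 4.83, while its mean in the 39-week CRD group, 3.79, was below the filter, so the size of its changes against that group is uncertain. Its 2 other probes averaged 4.74 and 4.40 over all arrays, below the filter. The 3 probes changed by -1.11, -0.84 and -0.47 with CRD at 39 weeks, where only the probe used had no overlap, and by -1.92, -1.64 and -1.35 with age after CRD, each without overlap. With the mean of all probes the 39-week CRD change had an adjusted p of 0.0552, and with 16 added to each intensity the change was -0.63 (adjusted p = 0.0468). With that offset the age change after CRD was -1.21 (adjusted p = 0.02). The start region is shown because Inpp4b was the one gene of the 9 called with age. It is the 250 bases before an annotated start and that start base, in capitals, at chr8:81342312-81342562, plus strand, RefSeq GRCm38.p6. The annotated gene begins upstream of this stretch, at position 81342266, so the start shown is not its outermost.
Inpp4b: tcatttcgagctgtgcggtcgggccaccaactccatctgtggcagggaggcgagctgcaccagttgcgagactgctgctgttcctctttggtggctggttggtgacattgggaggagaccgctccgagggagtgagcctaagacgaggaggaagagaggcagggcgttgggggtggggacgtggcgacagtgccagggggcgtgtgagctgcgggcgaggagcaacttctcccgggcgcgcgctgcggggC
Neither CACGTG nor GTAAACA, the core motif of FoxO factors, was found on either strand of the 300-base window around that start.

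**Figure D2:**
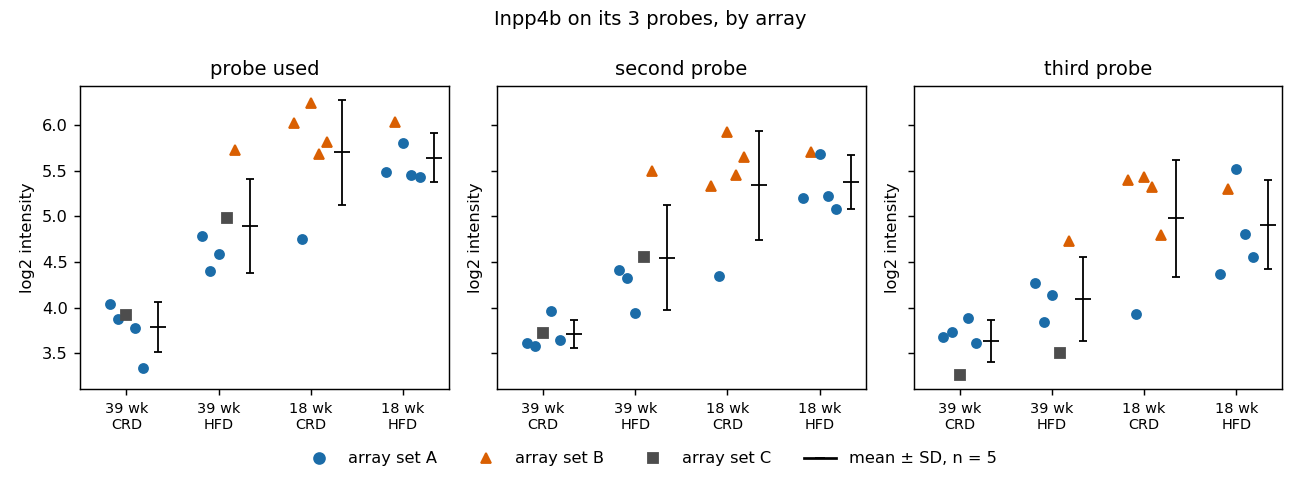
Log2 intensity of the 3 Inpp4b probes on each array (points, with a symbol for each array set) and the group mean ± SD (bars, n = 5), in the 39-week CRD, 39-week HFD, 18-week CRD and 18-week HFD groups. The 39-week CRD points are below all 18-week CRD points on each probe.

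Foxo1 encodes a transcription factor that AKT inactivates. Its log2 intensity was 9.53, 9.33, 9.04, 9.03 and 9.48 after CRD, against 9.79, 9.84, 9.98, 9.83 and 10.09 on HFD at 39 weeks. At 18 weeks it was 9.49, 9.23, 9.53, 9.54 and 9.53 after CRD, against 9.73, 10.06, 9.96, 10.05 and 9.67 on HFD. At both ages all 5 CRD arrays were below all 5 HFD arrays, while the groups of different age on the same diet overlapped. The order of means was 39-week HFD, 18-week HFD, 18-week CRD and 39-week CRD, and its one step without overlap was that between HFD and CRD.

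The Foxo1 change with CRD was -0.62 ± 0.15 at 39 weeks, 0.649 times the HFD level (limma, adjusted p = 0.0104). At 18 weeks it was -0.43 ± 0.15, 0.743 times the HFD level (limma, adjusted p = 0.0407). With array set blocked the changes were -0.58 at 39 weeks (adjusted p = 0.00356) and -0.56 at 18 weeks (adjusted p = 0.0135). Within sets at 39 weeks they were -0.53 in set A (4 CRD arrays against 3) and -0.79 in set C (1 against 1). Within sets at 18 weeks they were -0.62 in set A (1 CRD array against 4) and -0.54 in set B (4 against 1). That 1 CRD array in set A was replicate 2, the lowest of its group. In a fit of the 12 arrays of set A alone the 39-week change was not called (adjusted p = 0.193). The CRD effects at the 2 ages differed by -0.20 ± 0.21 (95% interval -0.63 to 0.24, adjusted p = 0.486).

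Leaving out 1 array at a time, the 39-week call held in 10 of 10 fits and the 18-week call in 3 of 10, with changes of -0.48 to -0.37 at 18 weeks. The 18-week call was lost without replicate 3 (adjusted p = 0.08) or replicate 4 (0.101) of the HFD group. It was lost also without any single array of the CRD group, at adjusted p-values of 0.0736, 0.0633, 0.0702, 0.064 and 0.0683 without replicates 1 to 5 in turn.

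Foxo3, a second FoxO factor, was called in no contrast. It ranged over 7.48 to 7.89 after CRD and 7.14 to 7.73 on HFD at 39 weeks, and over 7.08 to 7.33 after CRD and 7.14 to 7.95 on HFD at 18 weeks. The CRD changes of 0.12 ± 0.17 at 39 weeks and -0.32 ± 0.17 at 18 weeks were not called (adjusted p = 0.754 and 0.161). After CRD all 39-week arrays were above all 18-week arrays, at 0.43 ± 0.17 (adjusted p = 0.109), and with array set blocked this was 0.16. The log2 ratio of Foxo1 to Foxo3 was 1.68 ± 0.35 after CRD and 2.43 ± 0.32 on HFD at 39 weeks (SD, n = 5 each), a change of -0.75 without overlap (exact permutation p = 0.00794, adjusted 0.0423).

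The Foxo1 start region is shown because this gene fell at both ages. It is the 250 bases before the start and the start base, in capitals, at chr3:52268087-52268337, plus strand, RefSeq GRCm38.p6.
Foxo1: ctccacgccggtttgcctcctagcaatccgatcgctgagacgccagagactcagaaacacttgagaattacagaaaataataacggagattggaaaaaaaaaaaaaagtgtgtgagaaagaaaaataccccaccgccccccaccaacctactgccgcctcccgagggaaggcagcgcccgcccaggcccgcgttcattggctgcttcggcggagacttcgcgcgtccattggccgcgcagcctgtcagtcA
GTAAACA was absent from both strands of its 300-base window. It was in 1 of the 12 windows of the 9 genes, that of Akt1, 161 bases before the start, and in 3.65% of all windows.

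Of the 16 ratio tests, the 3 with CRD at 39 weeks for the IRS, AKT and FoxO pairs were called and 13 were not, among them all 4 for Insr against Igf1r. With CRD at 18 weeks the ratio changed by 0.40 for the IRS pair, -0.36 for the AKT pair and -0.11 for the FoxO pair. The adjusted p-values there were 0.698, 0.127 and 0.791 (exact permutation). The 3 calls were lost when the mean of all probes of a gene was used, with adjusted p-values of 0.0635 for the IRS and FoxO pairs and 0.367 for the AKT pair. The ratio changes of the IRS and FoxO pairs themselves were the same there, since those genes have 1 probe each, and the adjusted values changed through the AKT pair.

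**Figure D3:**
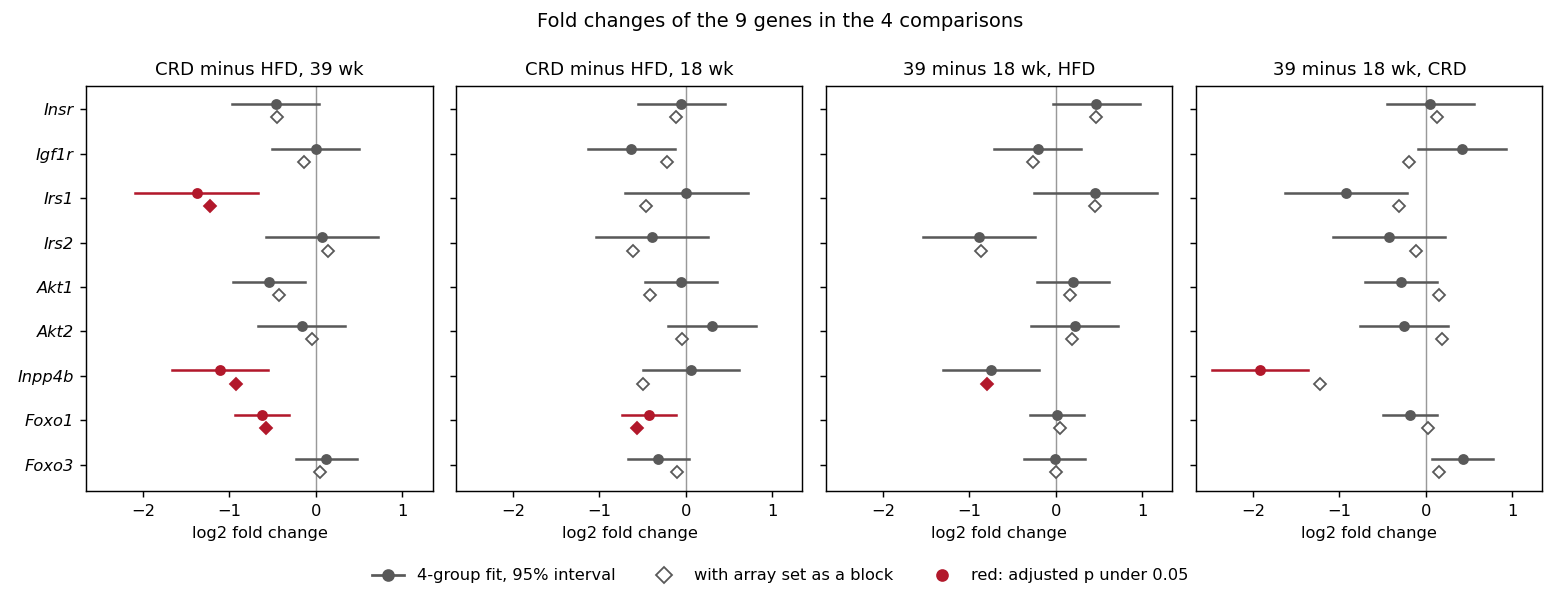
Log2 fold change of each of the 9 genes with its 95% interval, from limma, for CRD against HFD at each age and 39 against 18 weeks on each diet. Diamonds are the changes with array set blocked. Red circles passed an adjusted p under 0.05: Irs1, Foxo1 and Inpp4b with CRD at 39 weeks, Foxo1 with CRD at 18 weeks, and Inpp4b with age after CRD.

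The spread within a group was uneven. The 18-week HFD group had the widest SD of the 4 groups for 5 of the 9 genes, with an SD of 0.97 for Irs1 and 0.67 for Akt2. In that group Insr, Irs1, Akt1 and Akt2 were lowest on replicate 5. The 18-week HFD group also had the widest acinar marker levels. The difference between the CRD effects at the 2 ages was called for 0 of 9 genes and for 0% of all genes by limma, with 2 of 9, Irs1 and Inpp4b, at an unadjusted p under 0.05, as were 22.1% of all genes. Without replicate 2 of the 18-week HFD group both of those were called, along with 21.2% of all genes, at -1.64 for Irs1 and -1.27 for Inpp4b (adjusted p = 0.0429 each).

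The wider pathway was read from 10 lists of 106 genes, from ligands to FoxO targets, of which 102 had a probe and 95 were tested. These lists too were chosen with earlier results of these data known. With CRD at 39 weeks 18 of the 95 fell and 0 rose, or 18.9% lower against 4.84% of all genes. At 18 weeks 13 fell and 12 rose, 13.7% and 12.6%, against 7.89% lower and 17.0% higher of all genes. The median log2 fold change of the 95 genes was -0.36 at 39 weeks and 0.05 at 18 weeks, against 0.02 and 0.04 over all genes. With array set blocked these medians were -0.23 at 39 weeks and -0.19 at 18 weeks, so the 18-week median turned sign. In that fit 24 fell and 2 rose at 39 weeks (7.79% and 7.49% of all genes), and 17 fell and 1 rose at 18 weeks (5.97% and 6.89% of all genes). Counts of single lists below are to be read beside these shares of all genes. The acinar genes that rose with CRD at 18 weeks, 8 of 10, and the beta-cell genes that fell, 5 of 10 at 39 weeks and 8 of 10 at 18 weeks, moved alongside these counts, and their part was not tested. In each contrast of age, and in the difference between the CRD effects, 0 of 95 were called by limma. At an unadjusted p under 0.05 there were 8 of 95 with age on HFD, 41 with age after CRD and 19 in the difference between the CRD effects, where 6.6%, 35.6% and 22.1% of all genes reached it, or 11.3%, 1.67% and 1.79% with array set blocked.

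Among ligands and receptors, Insrr, an insulin receptor-related receptor, fell at both ages. It averaged 10.05 ± 0.05 after CRD and 11.10 ± 0.11 on HFD at 39 weeks, and 9.79 ± 0.15 after CRD and 10.94 ± 0.21 on HFD at 18 weeks (SD, n = 5 each). The changes were -1.05 ± 0.14 (limma, adjusted p = 3.47e-05) and -1.15 ± 0.14 (adjusted p = 7.71e-06). Igf2r, which clears IGF2, rose at 18 weeks by 1.17 ± 0.33 (adjusted p = 0.0139), and with array set blocked its change was 0.55 (adjusted p = 0.234). Of the IGF-binding proteins 1 of 5 rose at 18 weeks, Igfbp3 at 1.14 ± 0.38 (adjusted p = 0.0362, or 0.531 with array set blocked), and 0 of 5 were called at 39 weeks, nor did any reach an unadjusted p under 0.05 there. The ligand Igf2 was not called in either CRD contrast, at -0.03 ± 0.21 at 39 weeks and 0.22 ± 0.21 at 18 weeks. Of 16 adaptors and receptor inhibitors, Grb2, which links receptors to the RAS branch, fell at 39 weeks (-0.66 ± 0.18, adjusted p = 0.0286), and 0 of 16 were called at 18 weeks, with 2 at an unadjusted p under 0.05. Grb2 was called at 18 weeks too with array set blocked (-0.62, adjusted p = 0.031).

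Of 13 PI3K subunits and regulators, 3 fell at 39 weeks and 2 fell and 1 rose at 18 weeks. With array set blocked 4 fell and 0 rose at each age. Pik3ip1, an inhibitor of PI3K, fell at both ages. It averaged 4.74 ± 0.35 after CRD and 6.35 ± 0.57 on HFD at 39 weeks, and 5.79 ± 0.52 after CRD and 6.81 ± 0.36 on HFD at 18 weeks (SD, n = 5 each). Its changes were -1.61 ± 0.28 (limma, adjusted p = 0.000782) and -1.01 ± 0.28 (adjusted p = 0.0132). The Pik3ip1 mean after CRD at 39 weeks lay below the filter of 4.83, so the size of that fall is uncertain. The catalytic subunit gene Pik3ca and the regulatory subunit gene Pik3r2 fell at 39 weeks, with changes of -0.62 ± 0.18 and -0.50 ± 0.15 (adjusted p = 0.0342 and 0.0474). Pik3r1, the main regulatory subunit gene, fell at 18 weeks (-1.04 ± 0.22, adjusted p = 0.00255). The gene that rose at 18 weeks was Pik3r4 (0.76 ± 0.25, adjusted p = 0.0309, or 0.359 with array set blocked). Of 10 phosphatases, Inpp4a, the paralog of Inpp4b, fell at both ages, with changes of -1.12 ± 0.22 at 39 weeks and -1.03 ± 0.22 at 18 weeks (adjusted p = 0.00227 and 0.00243), and Inpp5e fell at 18 weeks (-0.60 ± 0.18, adjusted p = 0.0214).

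Below PI3K, of 9 kinase and tribbles genes 2 fell at 39 weeks, Trib3 and Trib1, with changes of -1.59 ± 0.34 and -1.29 ± 0.27 (limma, adjusted p = 0.00486 and 0.00387). TRIB3 is a pseudokinase known to bind AKT. Trib1 fell at 18 weeks too (-0.90 ± 0.27, adjusted p = 0.0202), where Sgk3, an AKT-related kinase, rose by 1.03 ± 0.25 (adjusted p = 0.00623, or 0.088 with array set blocked). Of 17 mTOR branch genes 3 fell at 39 weeks, and at 18 weeks 3 fell and 5 rose, where 17.0% of all genes rose. In the fit with array set blocked 1 of the 17 rose and 3 fell at 18 weeks. Rictor, a subunit of the mTOR complex that phosphorylates AKT, fell at both ages, with changes of -0.88 ± 0.22 at 39 weeks and -0.98 ± 0.22 at 18 weeks. So did the mTOR inhibitor Deptor, with -0.61 ± 0.18 at 39 weeks and -1.17 ± 0.18 at 18 weeks. Tsc1, a brake on mTOR, changed by -0.97 ± 0.17 at 39 weeks and -0.80 ± 0.17 at 18 weeks. Adjusted p-values for Rictor, Deptor and Tsc1 were 0.0154, 0.0431 and 0.00106 at 39 weeks, and 0.00348, 0.000168 and 0.00276 at 18 weeks. Rheb, the activator of mTOR that the TSC proteins restrain, rose at 18 weeks by 1.33 ± 0.29 (adjusted p = 0.00276, or 0.0179 with array set blocked). Eif4e, the cap-binding translation factor, rose there by 1.15 ± 0.34 (adjusted p = 0.0191, or 0.311 with array set blocked).

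Foxo6, another FoxO gene, fell at both ages, with changes of -0.90 ± 0.19 at 39 weeks and -0.59 ± 0.19 at 18 weeks (limma, adjusted p = 0.00412 and 0.0273), while Foxo4 was called at neither. Of 19 genes known as FoxO targets in various tissues, 6 fell and 0 rose at 39 weeks, where 4.84% of all genes fell and 3.50% rose. At 18 weeks 3 fell and 3 rose, where 7.89% of all genes fell and 17.0% rose. With array set blocked 8 fell and 1 rose at 39 weeks (7.79% and 7.49% of all genes). In that fit 2 fell and 0 rose at 18 weeks (5.97% and 6.89% of all genes). Fbxo32, a ubiquitin ligase subunit, averaged 5.76 ± 0.50 after CRD and 7.64 ± 0.45 on HFD at 39 weeks, a change of -1.88 ± 0.31 (adjusted p = 0.000492). The cell cycle inhibitor Ccng2 fell there with a change of -1.49 ± 0.34, and the stress genes Sesn1 and Sesn3 with -1.27 ± 0.23 and -0.95 ± 0.20 (adjusted p = 0.00822, 0.00107 and 0.00381). At 18 weeks Cited2 and G6pc fell and the antioxidant genes Cat and Sod2 rose, and none of these 4 was called with array set blocked (adjusted p = 0.111, 0.269, 0.549 and 0.488). Sesn3 also fell at 18 weeks (-0.65 ± 0.20, adjusted p = 0.0216), and with array set blocked both Sesn3 (-0.93, adjusted p = 0.0025) and Sesn1 (-0.88, adjusted p = 0.00216) were called there.

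**Figure D4:**
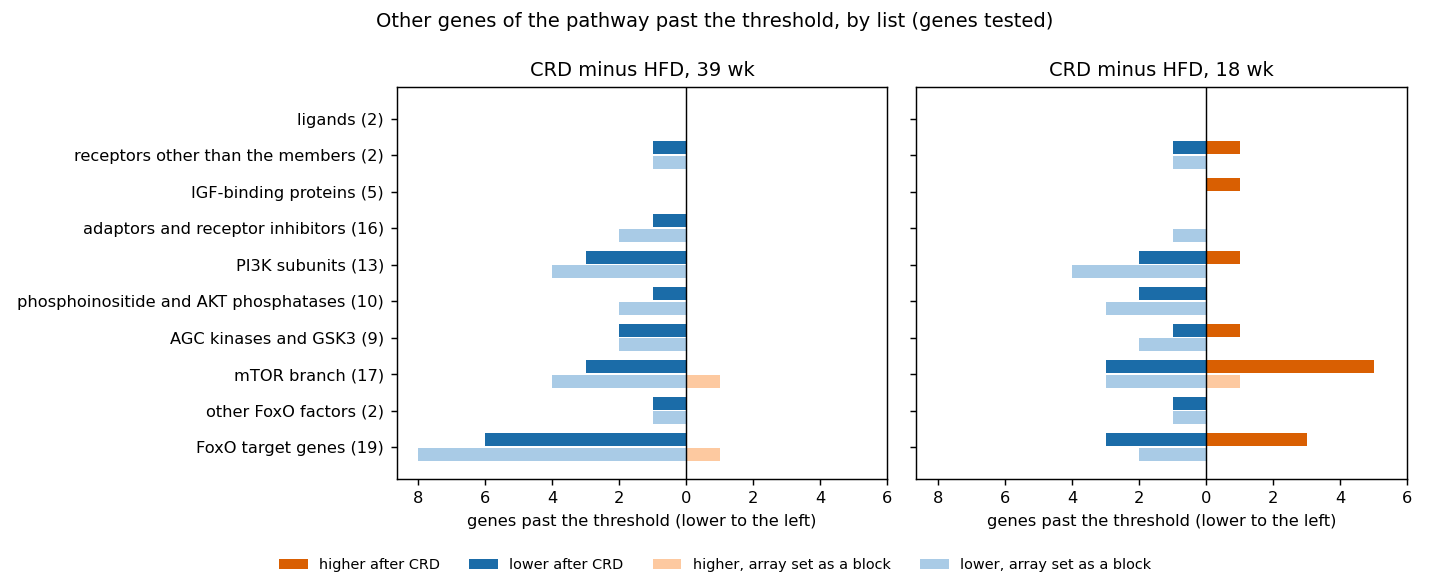
Number of genes per pathway list called higher or lower with CRD at 39 weeks and at 18 weeks (limma, adjusted p under 0.05), with paler bars for the fit with array set blocked. The darker bars run to the lower side at 39 weeks, 18 of 95 genes, and to both sides at 18 weeks, 13 lower and 12 higher.

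Genes whose pattern over the 20 arrays was most like a called gene were found by the root mean square difference of mean-centred log2 intensities. For Foxo1 they were Hipk4 (0.099), Tdrd3 (0.101) and Wdtc1 (0.119), where the median over all genes was 0.552. For Irs1 they were Rc3h1 (0.226), Dpy19l3 (0.245) and Acadsb (0.245), against a median of 0.774. For Inpp4b they were Luc7l (0.321), Dbt (0.355) and Cep83 (0.362), against a median of 0.890. The SD over the 20 arrays was 0.321 for Foxo1, 0.737 for Irs1 and 0.888 for Inpp4b. The measure is not scaled to this spread, so its values do not rank the closeness of match between the called genes. The arrays share diet, age and array set, so likeness here describes the pattern only.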

How the data were processed

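Values are the deposited intensity of each of 59448 probes on each of 20 arrays, not logged. Agilent Feature Extraction 11 is named in the submitters' processing notes, and no source used here states a background correction. Sorted, the 20 columns are identical, which shows quantile normalization by the authors. Values were taken as log2 here. Precision is limited by the small number of arrays. The platform annotation gave 1 gene symbol to 30010 probes, none to 29438 and several to 0. Genes in the lowest 30% by mean over all arrays (under 4.83 on the log2 scale) were left out.

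All 4 groups were fitted together with limma 3.58.1 (R 4.3.3), and p-values were adjusted by Benjamini-Hochberg over all 18311 genes at a threshold of 0.05. Samples of a group were taken as separate mice, and where they are not, p-values measure only the spread between samples. The main fit was tried on simulated data with independent noise and no array sets, so that trial does not cover effects of the array sets. Named genes are the 9 members and, in each pathway list and contrast, at most 4 of the called genes, taken by size of change, or 2 by p where none was called. Some genes named for 1 age are also given at the other age. The members and lists were chosen with earlier results of these data known. The labels do not say that replicate numbers pair mice, and of 20 same-numbered pairs 3 had deviations correlated over 0.1 (range -0.85 to 0.37). The replicate numbers were therefore taken as names only. Some other numbers in the sample titles recur between groups under other replicate numbers. Their meaning is not given, and pairing by them was not checked. Ratio tests were exact permutations in SciPy 1.17.1. Alternatives covered the filter, an offset, the probe, the array set, array weights, the variance model, the arrays fitted and each array left out. The fit of set A alone and the ratio tests with an offset or other probes were chosen after seeing the data.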

Additional observations from a re-analysis of the deposited data

Results flagged for a closer look

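Over the 9 genes and 4 groups, 36 groups of 5 arrays were searched for a single array far from the rest, by Dixon's test, which chance passes in about 1 of 20 groups. Irs2 on replicate 5 of the 39-week HFD group stood at 10.48 on the log2 scale, above the other 4 arrays of that group at 9.77 to 9.96, and it is the only array of that group in set B. Foxo1 on replicate 2 of the 18-week CRD group stood at 9.23, below the other 4 arrays of that group at 9.49 to 9.54, and it is the only array of that group in set A.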

How the results depend on the processing

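With CRD at 39 weeks, 3 of the 9 genes were called whichever of the 10 arrays was left out (5.48% to 7.61% of all genes). Leaving out the lowest 50% of genes gave 1 call (7 of 9 genes tested, 9.42% of all genes), and set A alone gave 1 (3.53%). The mean of all probes (8.62%) or the second probe (8.49%) gave 2. Array set as a random block (15.3%) or array weights (24.1%) gave 4. With CRD at 18 weeks, 0 to 2 were called with an array left out (14.3% to 45.9% of all genes), against 1 with all arrays (24.9%). The replicate block (17.5% of all genes) and only the groups compared (12.6%) gave 0, and array weights gave 4 (68.3%). Set A held 1 array of the 18-week CRD group, so its counts are not given for CRD at 18 weeks or age after CRD. With the replicate block the Foxo1 change had an adjusted p of 0.086 at 18 weeks, the sole call on the 9 genes that this block changed. With age on HFD, 0 were called with any array left out (0% to 1.55% of all genes). Array set as a fixed (0.912% of all genes) or a random block (1.45%) gave 1, and array weights gave 2 (8.77%). With age after CRD, 1 to 2 were called with an array left out (0.0164% to 35.3% of all genes). Leaving out the lowest 50% gave 0 calls (0.0229% of all genes), as did array set as either block (0%). Fitting only the groups compared gave 3 (26.3%) and array weights gave 7 (77.4%). In the difference between the CRD effects, 0 to 2 were called with an array left out (2 without replicate 2 of the 18-week HFD group, with 21.2% of all genes) and 3 with array weights (44.3%).

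Of 521 other values over 12 settings, 459 kept their direction and their side of the threshold, 10 lost and 20 gained a call, and 32 changed sign, 0 of these where either value was called; the causes were not tested. For CRD at 18 weeks these were Irs1 (offset -0.041, fixed block -0.46, random block -0.39, set A -0.036), Inpp4b (second probe -0.037, fixed block -0.50, random block -0.42, set A -0.80), Akt2 (fixed block -0.044) and Insr (set A 0.19). For age on HFD they were Akt1 (mean of probes -0.28, second probe -0.75), Foxo3 (fixed block 0.001, random block 0.004, array weights 0.15), and, with array weights, Foxo1 -0.047 and Akt2 -0.046. For age after CRD they were, with the fixed block, Igf1r -0.20, Foxo1 0.031, Akt1 0.15 and Akt2 0.19, with the random block, Igf1r -0.073, Akt1 0.086 and Akt2 0.12, and in set A, Insr -0.10, Irs2 0.20, Foxo1 0.11, Akt1 0.15 and Akt2 0.19. For the difference between the CRD effects they were Akt1 (second probe 0.18), Insr (array weights 0.13) and Foxo1 (set A 0.091). With single arrays left out, sign changes occurred for CRD at 18 weeks in Insr (-0.22 to 0.11), Irs1 (-0.30 to 0.26), Akt1 (-0.21 to 0.085) and Inpp4b (-0.075 to 0.30), for CRD at 39 weeks in Igf1r (-0.21 to 0.10) and Irs2 (-0.14 to 0.19), for age on HFD in Foxo1 (-0.043 to 0.053) and Foxo3 (-0.10 to 0.10), and for age after CRD in Insr (-0.040 to 0.26).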
